A study of Homo sapiens with 4 samples.

Results

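The 6 genes described here encode antiviral effectors that block incoming viruses or act on nucleotides and nucleic acids: *MX1*, *MX2*, *RSAD2*, *CMPK2*, *SAMHD1* and *ISG20*. They were 6 of 46660 gene identifiers with linear RNAs in the RNA-seq table of a glioblastoma study. The genes were listed by name because *RSAD2*, *MX2* and *CMPK2* were among the deepest falls after knockdown of *FLI1*, with the other members added for their related roles. Their change between control and shFLI1 cells is thus a description and was not tested. *FLI1* encodes a transcription factor of the ETS family, and the study asked which genes change in glioblastoma cells when it is depleted.

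Of 4 libraries, 2 were of U87MG and 2 of U251MG, both long-established lines derived from human glioblastoma. For either line the control cells carried the pGreen vector (empty per the treatment labels, and named shControl in the sample titles) and gave 1 library, and cells that carried short hairpin RNA against *FLI1* (shFLI1) gave the other. All groups were infected with lentivirus in the presence of polybrene, selected with puromycin and collected as mixed stable cells, not as clones. The study's methods describe 2 hairpins against *FLI1*, and the labels do not say which of them the sequenced cells carried.

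Total counts were 12229780 in U87MG control, 21250153 in U87MG shFLI1, 18108612 in U251MG control and 28891055 in U251MG shFLI1 cells. The shFLI1 library was thus deeper than its control, by 1.74 times for U87MG and 1.60 times for U251MG, and levels are given as CPM, counts scaled to library size by TMM factors. *FLI1* itself measured 9.34 CPM in U87MG control, 2.34 in U87MG shFLI1, 12.1 in U251MG control and 3.71 in U251MG shFLI1 cells, which left 25.0% and 30.6% of the control level. Of 6 glial and mesenchymal markers (*GFAP*, *NES*, *VIM*, *S100B*, *SOX2* and *CD44*), between 5 and 6 exceeded 3 counts in each library, with a summed level between 5630 and 9190 CPM that was higher in the shFLI1 library of both cell lines. *GFAP*, an astrocyte filament, had 634 CPM in U87MG control, 1590 in U87MG shFLI1, 20.4 in U251MG control and 93.8 in U251MG shFLI1 cells, whereas *VIM* in shFLI1 cells was at 96.8% and 106% of its control. *S100B* was near 0, at between 1 and 11 counts. The summed level of 7 immune cell markers lay between 0.899 and 2.54 CPM, with between 1 and 3 of them over 3 counts per library. *PTPRC*, which marks leukocytes, had 0, 0, 1 and 5 counts, and *CD3E* and *AIF1* had no value used here. The part of these markers in the results below was not tested. Each arm was represented by 1 library, so a difference has no replicate check, and each interval below is a 95% interval of the counts of 2 libraries. PCR reads are not independent molecules, so the intervals cover counting error only.

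The members are interferon-stimulated genes in many cell types. In that pathway, type I interferon binds its receptor, receptor-bound kinases activate transcription factors that bind interferon-stimulated response elements in promoters. MX1 and MX2 are large GTPases related to dynamins that trap incoming virus particles, MX2 being known for blocking HIV-1 at nuclear import. Viperin, the product of *RSAD2*, is a radical SAM enzyme that turns CTP into the chain terminator ddhCTP, CMPK2 is a mitochondrial kinase that phosphorylates CMP and UMP, SAMHD1 hydrolyses deoxynucleoside triphosphates, and ISG20 is an exonuclease that prefers RNA.

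The members lie at 4 places in the genome, and 4 of them form neighbouring pairs. On chromosome 21, *MX2* (Entrez 4600, chr21:41362027-41409393, plus strand) ends 11165 bases before *MX1* (Entrez 4599, chr21:41420558-41459214, plus strand) begins. On chromosome 2, *CMPK2* (Entrez 129607, chr2:6840553-6866635, minus strand) and *RSAD2* (Entrez 91543, chr2:6865885-6898239, plus strand) diverge, and their RefSeq loci overlap by 751 bases at the 5′ ends. Whether the counting used strand is not given in the sources used here, so it is not known if reads within this overlap were told apart. The canonical GENCODE transcripts start 11870 bases apart, at 6865907 for *CMPK2* and 6877777 for *RSAD2*. *SAMHD1* (Entrez 25939, chr20:36889773-36951708, minus strand) and *ISG20* (Entrez 3669, chr15:88635632-88656483, plus strand) stand alone. Coordinates are from the RefSeq annotation of GRCh38.p14.

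Promoter windows of 300 bases, from 250 bases before a start site to 50 after it, were searched on both strands for the core of the interferon-stimulated response element, spelled here as GAAA and GAAA with any 2 bases between them, for the closer spacing GAAANGAAA and for the ETS core CCGGAA. RefSeq promoter windows of GRCh38.p14 were matched for 5 of the 6 members, with 3 windows for *MX1*, 2 for *RSAD2*, 3 for *CMPK2*, 1 for *SAMHD1* and 1 for *ISG20*. The sites below are shown because they place the response element letters of each promoter beside the expression values of its gene. Each is 30 bases long and is written on the strand of its gene, with the motif or its reverse complement in capitals.
MX1, start at 41420558, chr21:41420559-41420588, plus strand: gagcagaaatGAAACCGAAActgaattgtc
MX1, start at 41426239, chr21:41426116-41426145, plus strand: aggagctaggTTTCGTTTCtgcgcccggag
MX1, start at 41426239, chr21:41426161-41426190, plus strand: ggtctgtgagTTTCATTTCttcgcggcgcg
RSAD2, start at 6877777, chr2:6877622-6877651, plus strand: ctgtttcaacTTTCAGTTTCacatgtggaa
RSAD2, start at 6865885, chr2:6865791-6865820, plus strand: gcgccagcggGAAACGAAAgcgaagcgttg
RSAD2, start at 6865885, chr2:6865815-6865844, plus strand: gcgttgcgggGAAACGAAAgccggaggccc
CMPK2, start at 6865819, chr2:6865790-6865819, minus strand: aacgcttcgcTTTCGTTTCccgctggcgcc
CMPK2, start at 6865819, chr2:6865814-6865843, minus strand: ggcctccggcTTTCGTTTCcccgcaacgct
ISG20, start at 88639016, chr15:88638937-88638966, plus strand: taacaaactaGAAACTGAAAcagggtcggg

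The response element core was found in 2 of the 3 *MX1* windows, in the *RSAD2* window at 6877777 and in the *ISG20* window. Over all 35116 windows of the same length, 3.57% held this core, 3.12% held GAAANGAAA and 17.2% held CCGGAA. At 41420558, the printed *MX1* core overlaps a GAAANGAAA match that starts 5 bases earlier. The *RSAD2* window at 6865885 held 4 matches of GAAANGAAA, and the last 2 are the same genomic letters as both matches of the *CMPK2* window at 6865819, read on opposite strands. A single CCGGAA match between these starts (chr2:6865866-6865895, read for *CMPK2* as gaggaggagaggCCGGAAgggcgccccagc) was likewise shared by both genes. The *SAMHD1* window held none of the 3 motifs in these letters. These matches describe letters and not bound sites.

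All 6 members were lower in shFLI1 than in control cells of both cell lines, by between 1.94-fold and 52.0-fold, where 44.4% of genes were lower by any amount in U87MG and 45.6% in U251MG. In U87MG, 5 of 6 members were lower past 2-fold, where 4.45% of 17355 genes were, taken over those that reached 10 counts in a library of the cell line. In U251MG this held for 6 of 6, where 4.19% of 18222 genes were. Past 4-fold, 4 of 6 members were lower in U87MG against 1.12% of genes, and 4 of 6 in U251MG against 1.34%. Since the members were chosen from this contrast, nothing is read from these shares. The 6 members had median values of −3.80 (U87MG) and −4.49 (U251MG) on the log2 scale, beside 0.059 and 0.041 over all genes with enough counts. In bulk RNA, fewer cells that express a gene and less RNA per cell cannot be told apart.

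**Figure D1:**
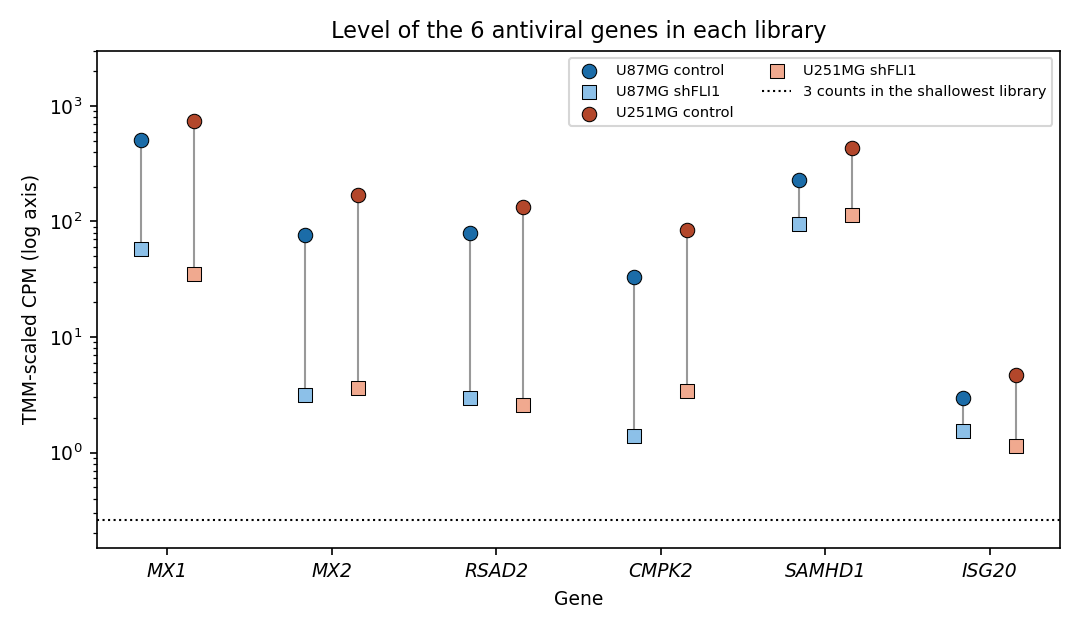
Level of each member in CPM on a log axis in the 4 libraries, with 1 point per library, a grey line joining the arms of a cell line and a dotted line at 3 counts in the shallowest library (0.262 CPM). *MX2*, *RSAD2* and *CMPK2* had between 33.2 and 169 CPM in the control libraries and between 1.39 and 3.64 CPM in the shFLI1 libraries, whereas the lines of *SAMHD1* and *ISG20* are short.

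Among the GTPases, *MX1* measured 504 CPM in U87MG control, 57.9 in U87MG shFLI1, 736 in U251MG control and 34.9 in U251MG shFLI1 cells, from 5770, 1287, 13113 and 1046 counts. Its log2 fold change was −3.12 (interval −3.21 to −3.04) in U87MG and −4.39 (−4.49 to −4.31) in U251MG, which left 11.5% and 4.75% of the control level.

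*MX2*, the other GTPase gene, measured 76.4 CPM in U87MG control, 3.15 in U87MG shFLI1, 169 in U251MG control and 3.64 in U251MG shFLI1 cells, from 875, 70, 3018 and 109 counts. Whereas the control libraries differed from each other, both shFLI1 libraries were near the same low level. The log2 fold change was −4.56 (−4.97 to −4.25) in U87MG and −5.50 (−5.83 to −5.26) in U251MG, a 24.3-fold and a 46.5-fold lower level.

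*RSAD2* had the lowest log2 fold change of the 6 members in both cell lines. Its level was 78.9 CPM in U87MG control, 2.97 in U87MG shFLI1, 134 in U251MG control and 2.57 in U251MG shFLI1 cells, from 903, 66, 2383 and 77 counts. The shFLI1 libraries held 3.76% and 1.92% of their control levels. The log2 fold change was −4.69 (−5.12 to −4.37) in U87MG and −5.65 (−6.05 to −5.37) in U251MG. Its interval overlapped those of *MX2* and *CMPK2* in U87MG and that of *MX2* in U251MG. On the FPKM scale in U87MG, *MX2* (−3.55 against −3.54, pseudocount 1) or *CMPK2* (−4.37 against −4.22, pseudocount 0.1) was the lower. Ranked from the lowest log2 fold change, *RSAD2* stood at position 13 of 17355 genes in U87MG and at position 2 of 18222 in U251MG. *MX2* stood at 14 and 4, *CMPK2* at 20 and 15, and *MX1* at 83 and 20. The far end of this order holds many genes of low counts. The order was therefore also taken among genes with at least 100 control counts, where *RSAD2* stood at 3 of 9910 and 2 of 11114. The members were chosen on this contrast, and *RSAD2* passes this filter through its control counts, with 66 and 77 in the shFLI1 libraries. Nothing is read from these positions.

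*CMPK2* has a RefSeq locus that overlaps that of *RSAD2*. The gene measured 33.2 CPM in U87MG control, 1.39 in U87MG shFLI1, 84.6 in U251MG control and 3.41 in U251MG shFLI1 cells. These levels came from 380, 31, 1509 and 102 counts. U251MG cells had the higher level in either condition. The log2 fold change was −4.48 (−5.15 to −4.04) in U87MG and −4.60 (−4.94 to −4.35) in U251MG, a nearly equal 23.8-fold and 24.9-fold lower level.

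*SAMHD1* kept more of its control level than the members above. It measured 229 CPM in U87MG control, 95 in U87MG shFLI1, 428 in U251MG control and 113 in U251MG shFLI1 cells, from 2618, 2113, 7630 and 3384 counts. The shFLI1 libraries were at 41.6% and 26.4% of their own control. The log2 fold change was −1.27 (−1.35 to −1.18) in U87MG and −1.92 (−1.98 to −1.86) in U251MG, and the gene stood at positions 502 and 274 of the same order.

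*ISG20* had few counts, at 34, 34, 83 and 34. These corresponded to 2.97 CPM in U87MG control, 1.53 in U87MG shFLI1, 4.66 in U251MG control and 1.14 in U251MG shFLI1 cells. The raw counts of the U87MG libraries were equal. The difference in CPM thus came from the scaling, that is the greater depth of the shFLI1 library and the TMM factors (0.936 in control, 1.05 in shFLI1). Scaled by total counts alone, the log2 fold change in U87MG was −0.76. The log2 fold change was −0.92 (−1.69 to −0.23) in U87MG and −1.95 (−2.66 to −1.44) in U251MG. In U87MG, *ISG20* was thus 1.94-fold lower, and its counting interval spanned 2-fold. *SAMHD1* was 2.41-fold lower there, with its whole interval past 2-fold.

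**Figure D2:**
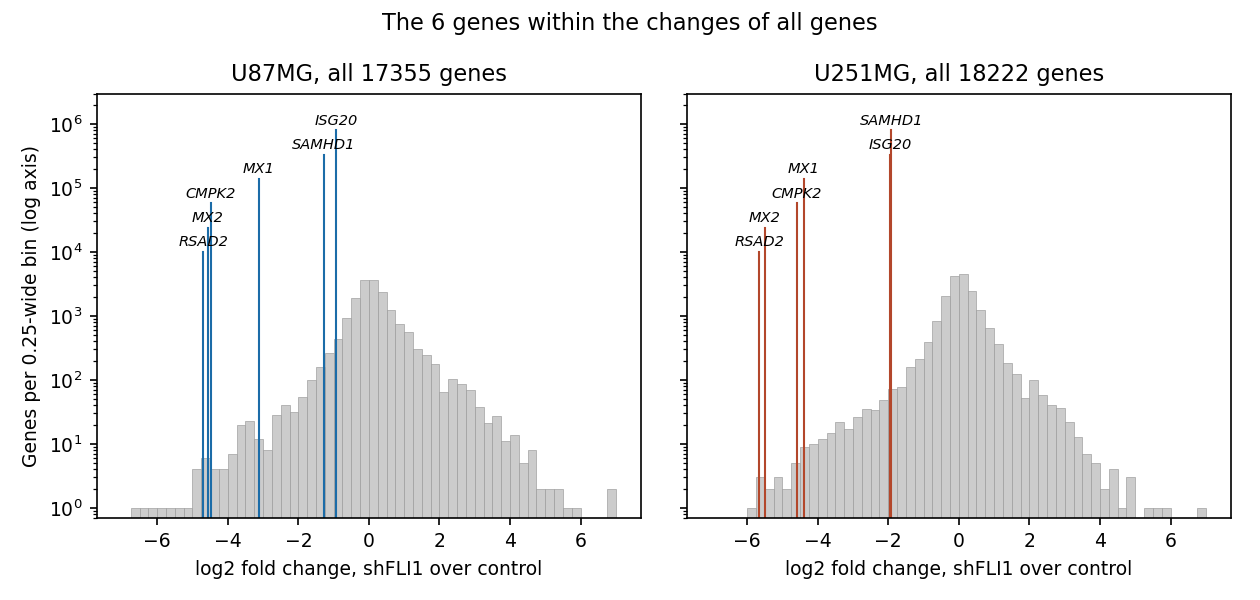
Histograms of the log2 fold change (shFLI1 over control) of all genes that reached 10 counts in the cell line, with a log axis for the number of genes and vertical lines at the 6 members. The members lie between −4.69 and −0.92 in U87MG and between −5.65 and −1.92 in U251MG, while the median of all genes lies near 0.

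The change was compared between the cell lines as the log2 fold change in U251MG minus that in U87MG, a value with no test because the 4 libraries leave no spread for it. All 6 members were further down in U251MG, as were 52.4% of 16384 genes with enough counts in both cell lines. The difference was −1.27 (−1.40 to −1.15) for *MX1*, −0.94 (−1.40 to −0.47) for *MX2* and −0.96 (−1.47 to −0.46) for *RSAD2*. It was −0.65 (−0.76 to −0.55) for *SAMHD1*, −1.03 (−2.04 to −0.11) for *ISG20* and −0.12 (−0.68 to 0.59) for *CMPK2*. Only for *CMPK2* did the counting interval include 0.

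**Figure D3:**
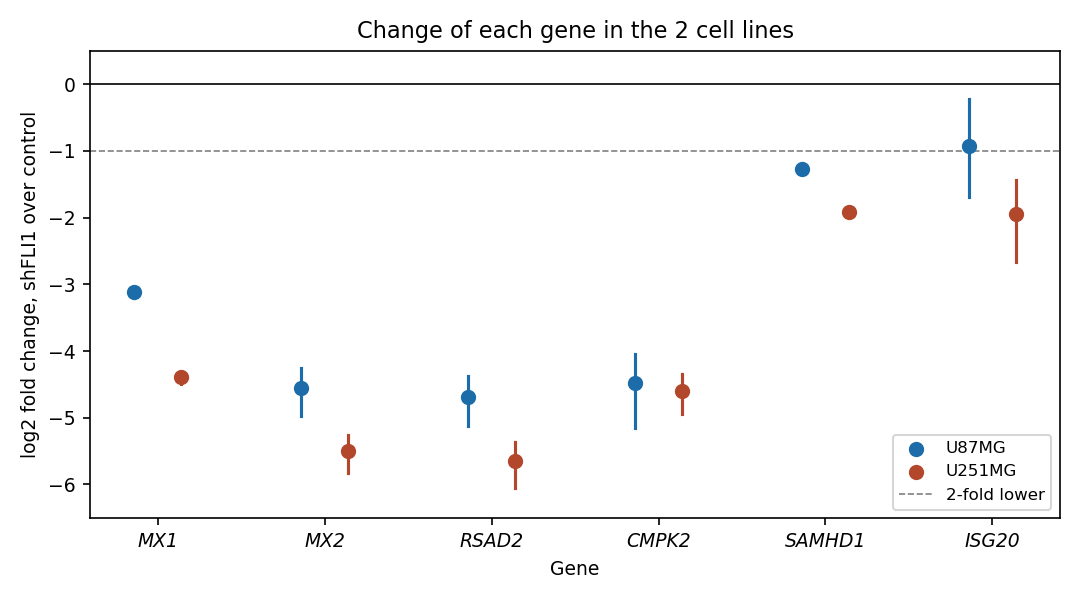
Log2 fold change of each member (shFLI1 over control) in U87MG and U251MG with 95% counting intervals. The U251MG point lies below the U87MG point for every member, by between 0.12 for *CMPK2* and 1.27 for *MX1* on the log2 scale.

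The control cells of the 2 lines also differed, and the same libraries are the denominators of the changes that chose the members. All 6 members were higher in U251MG control than in U87MG control cells, where 58.4% of 16391 genes were higher by any amount, with log2 ratios of 0.55 (0.50 to 0.59) for *MX1*, 1.15 (1.04 to 1.26) for *MX2* and 0.76 (0.65 to 0.87) for *RSAD2*. The ratios were 1.35 (1.19 to 1.52) for *CMPK2*, 0.90 (0.84 to 0.97) for *SAMHD1* and 0.63 (0.06 to 1.27) for *ISG20*. Hence 2 of 6 members were past 2-fold, where 11.0% of these genes were higher in U251MG by as much. In shFLI1 cells the order of the lines was not shared by the members. *MX1* was lower in U251MG (log2 ratio −0.73, −0.85 to −0.61), whereas *CMPK2* (1.23, 0.70 to 1.92) and *SAMHD1* (0.25, 0.17 to 0.33) were higher. For *MX2* (0.20, −0.24 to 0.66), *RSAD2* (−0.20, −0.70 to 0.29) and *ISG20* (−0.40, −1.16 to 0.30) the counting interval included 0.

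Levels were compared between genes per length and within a library, as the deposited FPKM summed over the linear RNAs of a gene. In both control libraries the order was *MX1*, *SAMHD1*, *MX2*, *RSAD2*, *CMPK2* and *ISG20*, with *MX1* at 187 FPKM in U87MG and 290 FPKM in U251MG. *MX2* and *RSAD2* were close to each other in U87MG control cells, at 26.3 and 25.3 FPKM. After knockdown in U251MG, *SAMHD1* (27.0 FPKM) stood above *MX1* (14.7 FPKM), and in U87MG the values of *MX1* (24.4 FPKM) and *SAMHD1* (23.3 FPKM) were near each other. *MX2*, *RSAD2*, *CMPK2* and *ISG20* all lay between 0.54 and 1.75 FPKM in the shFLI1 libraries. The highest member exceeded the lowest 94.5-fold in U87MG control and 72.4-fold in U251MG control cells, against 45.2-fold and 37.5-fold in the shFLI1 cells. With 1 library per group, no spread is known by which neighbours in these orders could be told apart.

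The deposited table lists several RNAs per gene, with estimated counts that can be split between transcripts. For *SAMHD1*, *RSAD2* and *CMPK2* a single RNA led in every library. NM_015474 of *SAMHD1* held between 90.4% and 94.0% of the counts, and NM_207315 of *CMPK2* between 89.6% and 97.9%. NM_080657 of *RSAD2* held 96.6%, 91.0% and 96.7% in U87MG control, U87MG shFLI1 and U251MG control cells but 76.9% in U251MG shFLI1 cells, where XM_011510415 took 21.8% with only 16.8 counts. The GTPases drew on more RNAs. NM_002462 of *MX1* had 3179, 547, 7989 and 463 counts, and its share went from 55.1% to 42.5% in U87MG and from 60.9% to 44.2% in U251MG. XM_017028351 of *MX1* had 1258, 303, 2573 and 315 counts, and its share was larger in the shFLI1 library of both cell lines, at 23.6% against 21.8% and at 30.1% against 19.6%. XM_011529571 of *MX2* led in every library, with between 52.9% and 75.4% of the counts. *ISG20* was split over 6 RNAs with at least 10% of the counts in 1 library. Its XM_017022147 had 10.4, 12.8, 9.49 and 15.0 counts, with a scaled log2 change of −0.70 for U87MG and −0.18 for U251MG when taken alone. XM_006720488 had 6.34, 0, 35.4 and 3.94 counts, and NM_002201 had 9.57, 5.0, 25.8 and 5.13. The RNAs of *ISG20* thus differed in their change, on few counts each.

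For each member the nearest patterns were sought among 12048 genes that had a symbol and reached 100 counts, by the root mean square difference of centred log2 CPM over the 4 libraries, where 0 is the same pattern. *MX2* and *RSAD2* were each other's nearest gene (0.209), and *PSMB9* came next for both (0.373 and 0.364). *PSMB9*, an immunoproteasome subunit, had 23.8, 1.62, 44.4 and 1.17 CPM in the order of the libraries used above. *MX1* was nearest to *OAS2* (0.146) and *OAS1* (0.148), which encode oligoadenylate synthetases that switch on RNase L. *CMPK2* was nearest to *XAF1* (0.421) and *MX2* (0.445), and so had the least close match of the 6. *SAMHD1* was nearest to *IFI30* (0.081) and *SAMD9* (0.084), and *ISG20* to *ZNFX1* (0.076) and *GBP3* (0.099). *ISG20* had only between 34 and 83 counts per library, so its small distances carry much counting error. Between members, *SAMHD1* and *ISG20* differed by 0.262, and *MX1* and *RSAD2* by 0.733. With 4 libraries these distances only describe likeness.

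**Figure D4:**
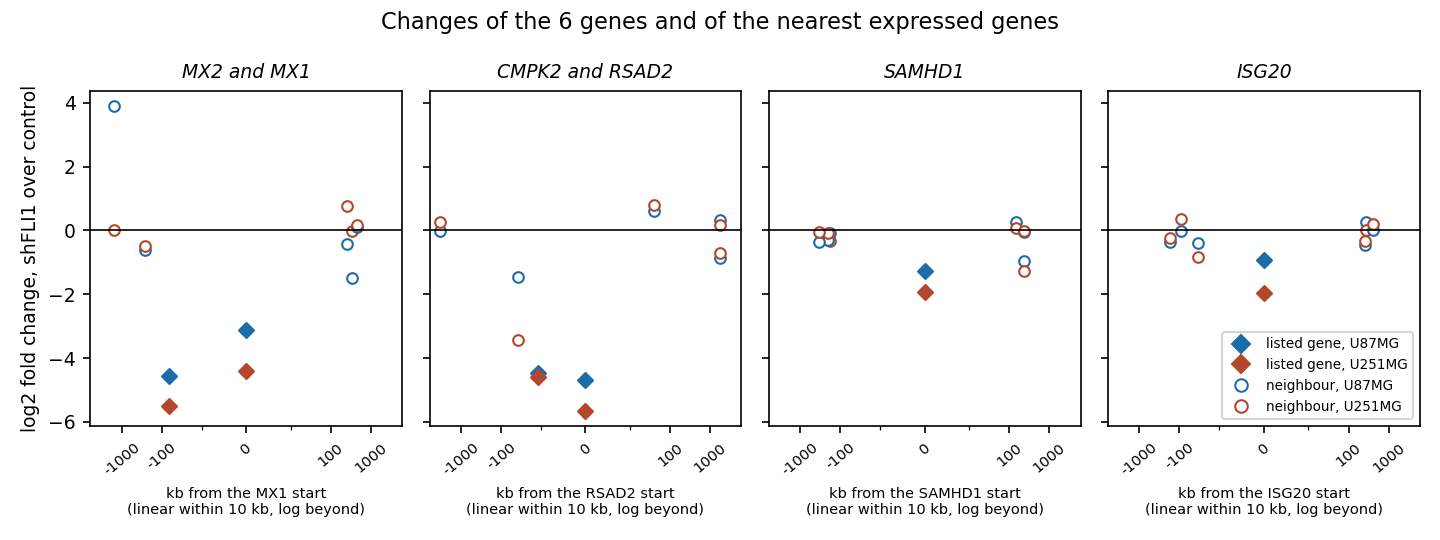
Log2 fold change in U87MG and U251MG of the genes nearest to each member's locus, by distance in kb from a member's start site on an axis that is linear within 10 kb and logarithmic beyond, with the members as diamonds. The members were chosen on this contrast, so their low position is given by that choice. The 24 other genes have medians of −0.07 in U87MG and −0.02 in U251MG. Of these, *SH3BGR* near *MX2* and *RNASEH1-DT* near *CMPK2* are not drawn.

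The genes beside the members were described from the RefSeq gene table, taking the 3 nearest on each side that reached 10 counts. They comprised 24 genes that are no members, of which 22 could be tested with edgeR's quasi-likelihood method on all 4 libraries, blocking on cell line. This shared fit takes the 2 cell lines as replicates of the knockdown and leaves 1 residual degree of freedom, and 3.06% of its 16649 genes passed at a Benjamini-Hochberg adjusted P below 0.05, with 2.14% lower and 0.919% higher. Scaled by TMM these were 356 lower and 153 higher genes, and scaled by total counts 199 and 166. Of the 22 neighbours, 1 was lower and 0 higher. The gene that fell was *ID2*, an inhibitor of helix-loop-helix factors 1800 kb from *RSAD2*, with −0.86 in U87MG and −0.72 in U251MG (adjusted P = 0.0192), and it did not pass with total counts. *RNF144A*, a ubiquitin ligase gene 39.6 kb from *RSAD2*, had log2 fold changes of 0.62 and 0.79 (adjusted P = 0.116). *BACE2*, a protease gene 194 kb from *MX2* on its far side, had −0.60 and −0.50 (adjusted P = 0.0805). *AEN*, the exonuclease gene 34.3 kb from *ISG20*, had −0.38 and −0.83 (adjusted P = 0.0836), and *RBL1*, 144 kb from *SAMHD1*, had 0.25 and 0.07 (adjusted P = 0.719). *NRIR*, a noncoding RNA gene 25.4 kb from the start of *CMPK2*, is outside the rule for named genes and was singled out after its values were seen. It had 2, 0, 17 and 0 counts and was not tested.

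Genes of the members' pathways and relatives were taken from 7 lists with 91 genes, the members left out. In the shared fit, 86 of them could be tested, of which 12 were lower, 2 were higher and the others did not pass. Over all 16649 genes of that fit, 2.14% were lower and 0.919% higher, the background for each list below. The direction within a list is given beside the medians of the separate cell lines, where the median of all genes was 0.059 and 0.041.

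In the interferon signalling list, 5 of 11 tested genes were lower and 0 were higher, with median log2 values of −0.47 (U87MG) and −1.07 (U251MG). *USP18*, which encodes an ISG15 protease that also dampens the interferon receptor, had 80.6, 16.7, 114 and 13.8 CPM in U87MG control, U87MG shFLI1, U251MG control and U251MG shFLI1 cells. Its log2 fold changes were −2.26 and −3.04 (shared −2.68, adjusted P = 0.000412 in edgeR's quasi-likelihood test). *STAT2* fell with −1.36 and −1.51 (adjusted P = 0.00127), and so did the factor genes *IRF1* with −0.88 and −1.80 (adjusted P = 0.0135) and *IRF9* with −0.96 and −1.31 (adjusted P = 0.00577). *IRF9* is outside the rule for named genes and was added after its values were seen. The receptor subunit *IFNAR1*, which did not pass, had 0.58 and 0.43 (adjusted P = 0.117) and is also named outside the rule. Of 10 interferon ligand genes, only *IFNA1*, *IFNB1* and *IFNE* had values used here, with summed counts of 8, 16, 8 and 6 in the order of the libraries above, too few for a test.

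In the list of nucleic acid enzymes of antiviral defence, 5 of 16 tested genes were lower and 0 higher, with medians of −0.57 and −0.55. The genes that fell were *TREX1*, a DNA exonuclease gene, with −1.01 and −1.04 (adjusted P = 0.0484), and *N4BP1*, whose product cleaves RNA, with −0.75 and −1.16 (adjusted P = 0.0135). *ADAR*, which edits adenosine in double-stranded RNA, had 791, 459, 1210 and 582 CPM and fell with −0.79 and −1.05 (adjusted P = 0.0334). *APOBEC3F*, a cytidine deaminase gene whose reads can be shared with its paralogs, fell with −0.81 and −0.95 (adjusted P = 0.0272), and *PNPT1*, a mitochondrial RNA exonuclease gene named outside the rule, with −0.55 and −1.14 (adjusted P = 0.0335). Scaled by total counts in place of TMM, 1 of these 5 passed.

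In the list of pyrimidine and deoxynucleotide supply, which holds the enzymes of the pools that SAMHD1, viperin and CMPK2 act on, 1 of 22 tested genes was lower and 0 higher, with medians of −0.14 and −0.07. This gene was *RRM2*, the small subunit of ribonucleotide reductase, with 226, 157, 286 and 142 CPM and log2 fold changes of −0.52 and −1.01 (adjusted P = 0.0432), and it did not pass with total counts. In the list of kinases, cyclins and inhibitors that bear on SAMHD1 phosphorylation, 1 of 10 was lower and 0 higher, with medians of −0.06 and −0.39. The gene that fell was *CDKN1A*, which encodes the CDK inhibitor p21, with −1.30 and −1.49 (adjusted P = 0.00142). With DESeq2, 1 gene of this list was lower and 1 higher.

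The structural relatives of the members were tested in the same shared fit. Since the members were chosen on this contrast, the relatives are not set against them. Not passing does not show that a gene was unchanged. In the list of dynamins, the superfamily of the MX proteins, 2 of 10 genes were higher and 0 lower, with medians of 0.24 and 0.18. *DNM3*, a dynamin gene, had 6.29, 12.9, 10.8 and 26.7 CPM and rose with 1.02 and 1.30 (adjusted P = 0.0168), and *OPA1*, which fuses inner mitochondrial membranes, rose with 0.86 and 0.59 (adjusted P = 0.0362). Of the 7 radical SAM enzyme genes besides *RSAD2*, 0 passed and 1 had an unadjusted P below 0.05, with medians of 0.13 and −0.14. The lowest adjusted P there, 0.258, was that of the tRNA-modifying enzyme gene *CDKAL1* in edgeR's quasi-likelihood test, and DESeq2 also called 0. Of the 10 DEDD exonuclease genes besides *ISG20*, 0 passed and 1 had an unadjusted P below 0.05, with medians of 0.08 and −0.15. The lowest adjusted P there was 0.0836, for *AEN*.

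**Figure D5:**
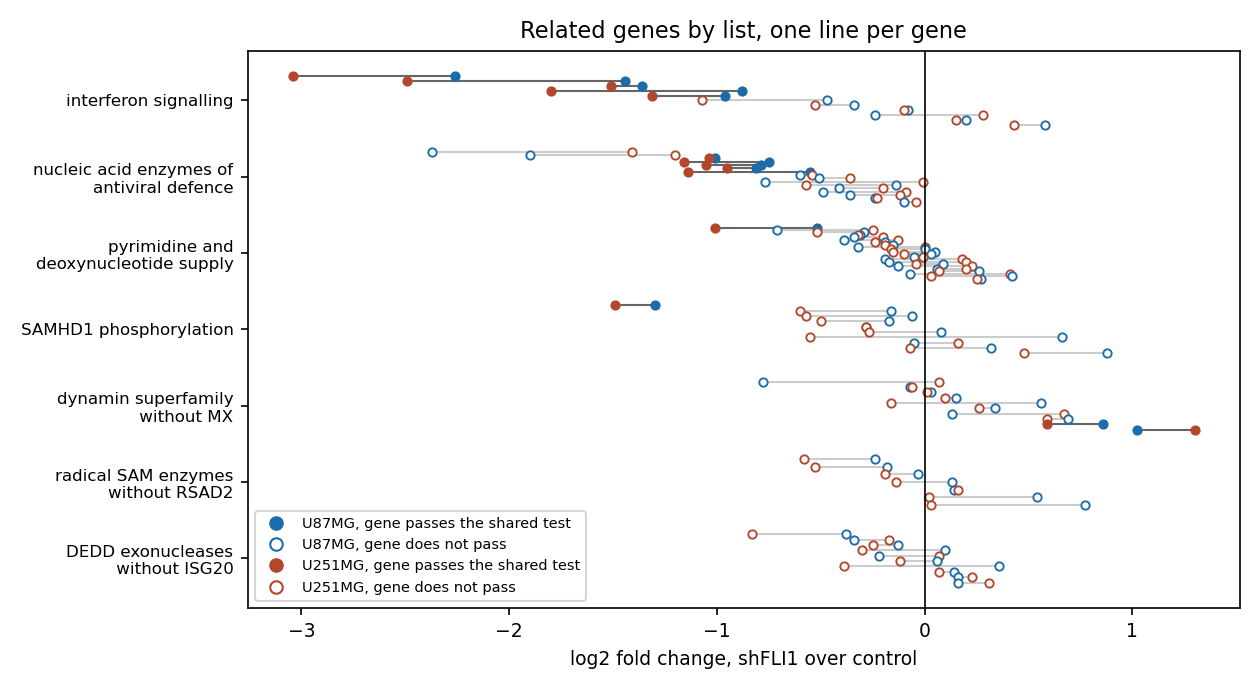
Log2 fold change (shFLI1 over control) of every tested gene of the 7 lists, with a line joining the U87MG and U251MG values of a gene and filled points for genes that passed the shared fit. Passing genes lie below 0 in the interferon signalling and nucleic acid enzyme lists and above 0 in the dynamin list.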

How the data were processed

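The 4 RNA-seq libraries were grouped by the sample labels, and table columns were assigned by their headings. The labels and the paper name different kits for the mRNA libraries. Per the study's methods, the authors aligned reads to GRCh38 with HISAT2 2.1.0 and computed FPKM with StringTie. The labels name build GRCh38.p13, and coordinates given here are those of RefSeq on GRCh38.p14. The deposited estimated counts are not normalized, and the tool behind them is not given in the sources used here. FPKM, which the authors scaled to transcript length and mapped fragments, was deposited per RNA and was summed here over the linear RNAs of a gene. These sums served only to order genes per length and as an alternative. Not used were 10 other value columns, which hold TPM and averages of the lines.

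Estimated counts of 185042 linear RNAs were summed over 46660 gene identifiers and rounded, and 23775 identifiers had a RefSeq symbol. CPM used TMM over the 4 libraries (edgeR 4.0.16, R 4.3.3), and log2 fold changes had a prior count of 2. It was scaled to library size for genes and unscaled for single RNAs taken alone. The background of a cell line was every gene that reached 10 counts there. Intervals are Clopper-Pearson (scipy 1.17.1, Python 3.11.15), and those of a difference between cell lines are exact conditional ones of the odds ratio. Related genes were tested by edgeR's quasi-likelihood test with the cell line as a block, genes kept by filterByExpr and Benjamini-Hochberg adjustment over all genes. DESeq2 1.42.0 was an alternative. The cell lines are not replicate cultures of 1 line, so the spread used is that of the change between them. With 1 residual degree of freedom, the method also borrows spread from all tested genes. A P-value thus does not rest on the spread of its own gene alone. The scripts were tested on simulated data, in which the fit met only 4-fold changes and no difference between cell lines. That does not check its calls of smaller changes.

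The members, the gene lists and the tests were chosen with earlier results of these data known. Named genes were the members, *FLI1*, up to 4 passing genes per list with the largest shared change or, where none passed, the one with the lowest adjusted P, neighbours that passed and the nearest that did not, RNAs with at least 10% of a member's counts in 1 library, and the 2 nearest patterns per member. Some genes within this rule are not reported here. Start sites of neighbours were taken from RefSeq coordinates with the strand from GENCODE 44, which left out 1220 expressed genes without a strand there.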

Additional observations from a re-analysis of the deposited data

How the results depend on the processing

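Under other scalings, another prior count, the FPKM settings and the RNA of most counts alone, 84 log2 fold changes of the members gave no reversal, and 60 stayed within the counting interval of the value reported. The median of the members was −3.04 in U87MG and −4.01 in U251MG on log2(FPKM + 1), and −4.72 in U251MG with the RNA of most counts alone, a setting chosen after seeing the data, in which 5 of 6 members were lower past 2-fold there because *ISG20* was at −0.18. Scaling by total counts moved the median of all genes to 0.218 and 0.113 and that of the members to −3.64 and −4.42. Genes lower past 2-fold in U87MG and U251MG numbered 772 and 763, against 306 and 300 on log2(FPKM + 1), 1722 and 1613 at 1.5-fold, 195 and 245 at 4-fold, 2218 and 2567 with no filter, and 265 and 265 among genes that reached 100 counts. The shared fit called 509 genes, against 1303 with no filter, 405 with DESeq2 and 0 without the cell line block, where 725 had an unadjusted P below 0.05. Without the block 0 of the related genes passed (15 unadjusted), in every list and among neighbours, against 14 with it. The nucleic acid enzyme list had 1 passing gene with total counts, 3 with DESeq2 and 3 with TMM before the filter (added after seeing the data), against 5. The pyrimidine list had 0 with total counts and 0 with TMM before the filter. The SAMHD1 phosphorylation list had 2 with DESeq2, with no filter and among genes of 100 counts or more in every library, of which 1 was lower and 1 higher each time, the DEDD list 1 with no filter, and the neighbours 0 with total counts and 6 with no filter. The cause was not tested. Of 104 values of named related genes under alternatives 81 kept their call, 22 no longer passed, 1 newly passed (*AEN* with no filter) and 0 reversed. The block pairs the libraries of a cell line, the labels give no replicate numbers for another pairing, and no library could be left out with 1 per arm. Depth limits *ISG20*, with between 34 and 83 counts.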
